A study of Mus musculus with 4 samples.

Results

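Interferon-stimulated genes were followed in satellite cells of 2 dystrophic mouse strains and their wildtype controls. The genes were a list of 36 symbols, from sensors and transcription factors of the interferon response to its antiviral effectors. Of these, 35 were among the 27998 features of the count matrices and Mx2 was not. A group of 19 of the 35, called inducible here, was chosen as genes known for little expression without interferon. These were Ifit1, Ifit2, Ifit3, Ifit3b, Isg15, Usp18, Irf7, Dhx58, Zbp1, Oasl1, Oasl2, Oas1a, Mx1, Iigp1, Rsad2, Cmpk2, Rtp4, Ifi44 and Xaf1. The other 16 include genes with a known level in resting cells, such as Ifitm3, Irf1 and Bst2. The name does not describe every gene here, since Xaf1 had levels in the range of those of Bst2.

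Type I and type III interferons are secreted when a cell senses foreign or misplaced nucleic acid, and type II interferon is secreted by lymphocytes. Receptors of type I and III interferon activate the kinases JAK1 and TYK2, and a complex that holds STAT2 and IRF9 then binds interferon-stimulated response elements near the start of target genes. IRF1 and the guanylate-binding proteins are classical targets of type II interferon. Satellite cells are the stem cells of skeletal muscle, marked by Pax7, and the repeated injury of dystrophin-deficient muscle brings them close to immune cells.

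The study compared the strains C57/Bl10ScsSn (B10), C57BL/10ScSn-Dmdmdx (*mdx*), DBA/2 (DBA) and D2.B10-Dmdmdx (D2-*mdx*). *mdx* and D2-*mdx* carry the same mutant allele of Dmd, the gene of dystrophin, on a milder and a more severe background, and none of the 4 groups received a treatment. Hindlimb cells were sorted as positive for α7-integrin and VCAM1 and negative for Cd11b, Cd45, Cd31 and Sca1, and Ly6a, the gene of Sca1, is itself known to respond to interferon. Each strain was 1 10X Genomics 3′ library of cells pooled from 2 male mice, aged 15 and 11 weeks for B10 and *mdx* and 13 and 14 weeks for DBA and D2-*mdx*. No strain had a replicate library, and no test was run. Intervals below are 95% intervals and cover counting error only, and strain, age, mice and library cannot be told apart.

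After limits on genes and mitochondrial reads and removal of predicted doublets, 3279 to 6313 cells per library were kept. Between 2696 and 4818 of them were myogenic, with 30099222 to 40356887 unique molecular identifiers (UMIs) per library and medians of 6489 to 10290 per cell. B10 stood apart, with 4739 barcodes under 1000 genes against at most 21 in each other library. Of its 9931 barcodes, 4143 had over 8% mitochondrial UMIs, against 272, 30 and 219 barcodes in *mdx*, DBA and D2-*mdx*. Of these 4143, 389 had at least 1000 genes. Pairs of libraries shared 3 to 8 of their kept barcodes. Levels are counts per 1000000 UMIs (CPM), summed over the cells of a library. The level of Dmd in myogenic cells was 324 CPM in B10 and 120 in *mdx*, and 288 in DBA and 93.9 in D2-*mdx*, in the direction of the labels.

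The promoters of many members carry letters that match a core of the response element. RefSeq promoters on GRCm38.p6 were at hand for 27 of the 35 members, and the 250 bases before the start were searched on both strands for a core of the element, GAAA, any 2 bases and GAAA again (read on the other strand as TTTC, any 2 bases and TTTC). A match was found in 14 of the 27 members (51.85%) and in 936 of 27025 genes with a promoter (3.463%). By group it was found in 6 of 13 inducible members (46.15%) and in 8 of 14 other members (57.14%). The 8 windows of 120 bases below show how the matches lie in genes whose levels differed widely among libraries (Ifit1, Ifit3, Ifit3b and Isg15), in Rsad2, whose level was even, in Oas1a, which was almost without reads, and in Gbp2 and Bst2 of the 16 other members. Each is written 5′ to 3′ on the strand of its gene, with the matches in capitals.
Ifit1: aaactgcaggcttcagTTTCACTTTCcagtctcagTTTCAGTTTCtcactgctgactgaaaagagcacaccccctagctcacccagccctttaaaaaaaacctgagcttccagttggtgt
Ifit3: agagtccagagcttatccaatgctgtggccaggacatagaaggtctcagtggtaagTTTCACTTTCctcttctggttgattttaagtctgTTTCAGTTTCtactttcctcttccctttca
Ifit3b: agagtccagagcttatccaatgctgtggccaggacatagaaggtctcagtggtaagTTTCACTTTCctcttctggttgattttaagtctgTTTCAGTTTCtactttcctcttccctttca
Isg15: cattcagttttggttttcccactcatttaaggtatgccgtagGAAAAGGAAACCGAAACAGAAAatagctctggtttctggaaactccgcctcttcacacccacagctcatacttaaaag
Rsad2: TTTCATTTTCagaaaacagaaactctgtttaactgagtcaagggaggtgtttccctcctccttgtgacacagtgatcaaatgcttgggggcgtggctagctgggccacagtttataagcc
Oas1a: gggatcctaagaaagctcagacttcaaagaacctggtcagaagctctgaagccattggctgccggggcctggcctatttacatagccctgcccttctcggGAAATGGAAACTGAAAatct
Gbp2: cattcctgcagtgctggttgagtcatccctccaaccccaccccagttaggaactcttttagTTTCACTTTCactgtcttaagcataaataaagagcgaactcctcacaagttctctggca
Bst2: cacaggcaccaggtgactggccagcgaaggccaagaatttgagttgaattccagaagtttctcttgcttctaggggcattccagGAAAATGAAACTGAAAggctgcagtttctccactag

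The Ifit1 window was chr19:34640769-34640888 on the plus strand, and those of its neighbours were chr19:34583317-34583436 for Ifit3 and chr19:34607713-34607832 for Ifit3b. The Isg15 window was chr4:156200819-156200938, the Rsad2 window chr12:26456453-26456572 and the Oas1a window chr5:120907526-120907645, all 3 on the minus strand. Gbp2 was read at chr3:142620543-142620662 on the plus strand and Bst2 at chr8:71537567-71537686 on the minus strand. All lie before the RefSeq start of the gene, with the last base next to it except in Ifit3, Ifit3b and Bst2. Starts differ between annotations: GENCODE places that of Ifit1 at 34640871 and that of Gbp2 at 142620602, inside the windows, and the Gbp2 match then lies within the gene. The Ifit3 and Ifit3b windows were identical in 120 of 120 bases, with 2 matches each, as in Ifit1. In Isg15 3 matches overlapped in 1 run, and in Oas1a and Bst2 2 matches overlapped. A match is a description of letters, and binding was not measured.

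Ifit2, Ifit3, Ifit3b and Ifit1 sit side by side on chromosome 19, 3 members are guanylate-binding protein genes on chromosome 3, and Rsad2 and Cmpk2 are neighbours on chromosome 12. Reads of near-identical copies may have been split or dropped in counting. In the last 500 bases of the transcript, where a 3′ library reads, 56.1% of 50-base words of Oas1a also occurred in Oas1g, 14.86% of those of Ifit3 in Ifit3b, and 13.97% of those of Ifitm3 in Ifitm2, Gm7676 or Gm45717. The annotated spans of Igtp and Irgm2 overlap on 1 strand of chromosome 11, so their counts are uncertain in the same way.

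Summed over all members, the level in myogenic cells was lower in DBA than in each other library. B10 had 1063.5 CPM (95% interval 1053.4 to 1073.7) and *mdx* 926 (917 to 936), while DBA had 532 (524 to 540) and D2-*mdx* 860 (850 to 870). A single gene took much of this sum: Ifitm3, whose protein stops viruses from fusing with the cell, gave 46.2%, 55.5%, 48.9% and 68.6% of the member UMIs in this order of libraries. Without Ifitm3 the sums were 572, 412, 272 and 270 CPM, and DBA and D2-*mdx* then differed by a log2 ratio of -0.01 (-0.06 to 0.03). The 19 inducible members together reached 182 CPM (178 to 187) in B10 and 150 (147 to 154) in *mdx*, whereas DBA reached 74.8 (71.8 to 78.0) and D2-*mdx* 85.0 (81.9 to 88.1). The 2 libraries on the B10 background thus lay above the 2 on the DBA background. Of the inducible UMIs, Xaf1 and Cmpk2 gave 889 and 414 of 2252 in DBA, and 1465 and 632 of 7275 in B10.

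**Figure D1:**
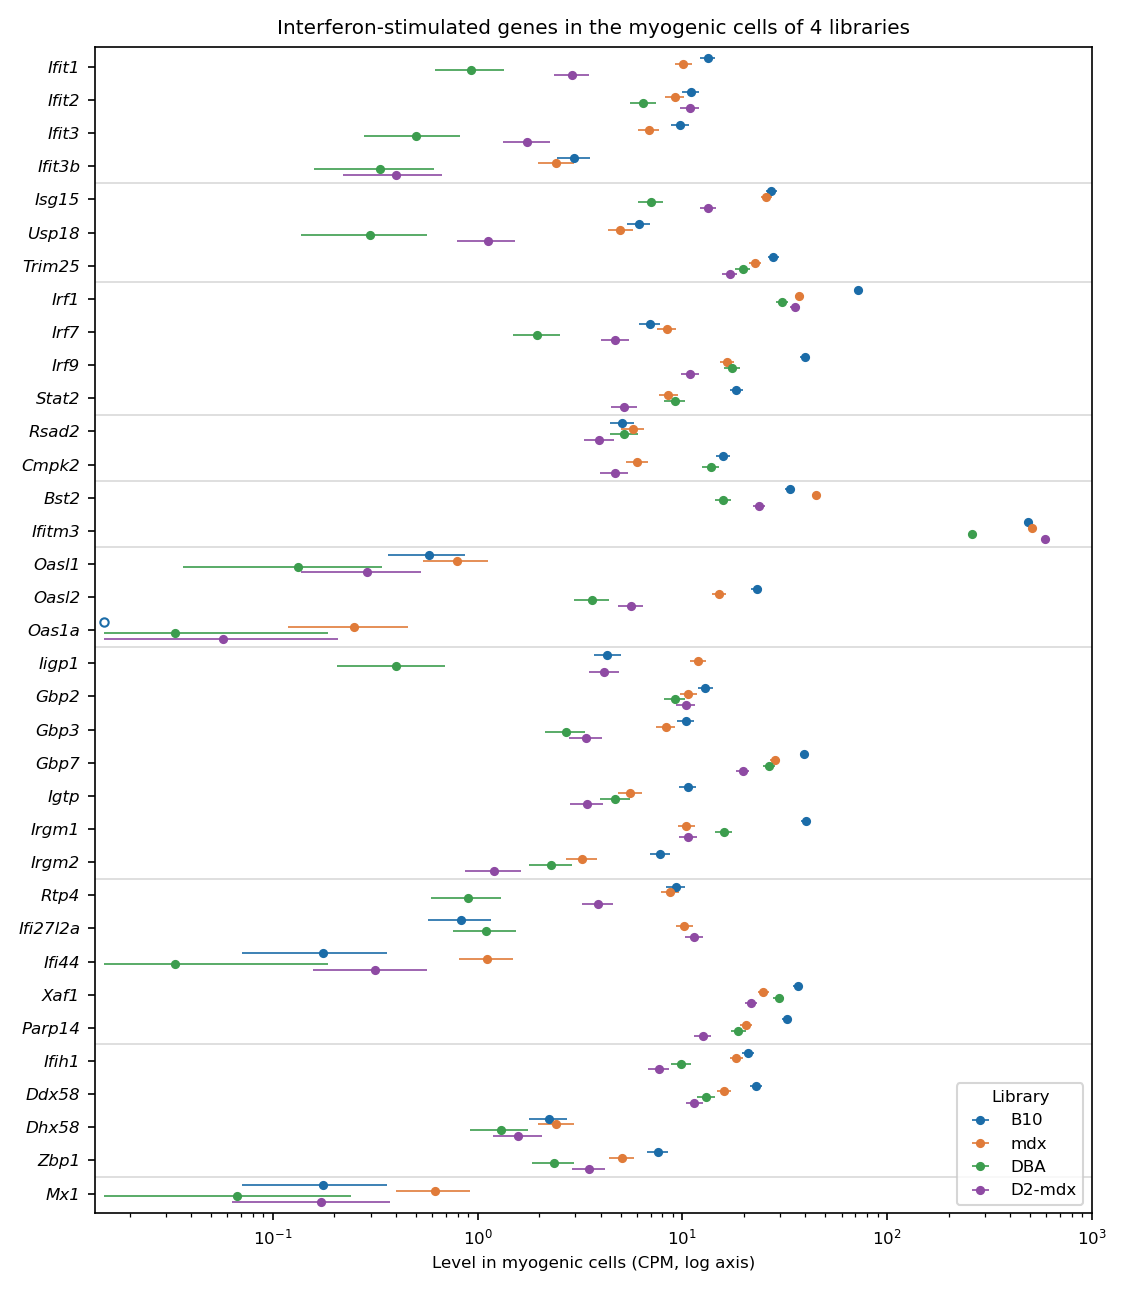
Level of each of the 35 members in myogenic cells, in CPM on a log axis, 1 point per library (B10, *mdx*, DBA and D2-*mdx*) with exact 95% Poisson intervals, which cover counting error only; an open point at the left edge is a library with no UMI. For members such as Ifit1, Ifit3 and Usp18 the DBA point lies far to the left of the B10 point.

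The transcription factors of the response were highest in B10. Irf1, an early factor, was at 72.2 and 37.2 CPM in B10 and *mdx*, and 30.7 and 35.7 in DBA and D2-*mdx*. The 2 dystrophic libraries did not differ beyond counting error for this gene (log2 ratio of D2-*mdx* over *mdx* -0.06, -0.17 to 0.05). Irf9, the DNA-binding part of the STAT complex, was at 39.7, 16.6, 17.5 and 11.0 CPM in B10, *mdx*, DBA and D2-*mdx*, and Stat2, its partner, at 18.4, 8.55, 9.17 and 5.22 CPM. Both were more than 2-fold lower in *mdx* than in B10, by log2 ratios of -1.26 (-1.40 to -1.13) and -1.10 (-1.29 to -0.92). Irf7, which amplifies interferon production and is itself induced, had another order. It was at 6.92 and 8.42 CPM in B10 and *mdx*, and 1.96 and 4.71 in DBA and D2-*mdx*. Both dystrophic libraries were above their controls, by log2 ratios of 0.28 (0.05 to 0.52) and 1.26 (0.83 to 1.72). The first of these ratios depended on few cells, as described further on.

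The sensors of nucleic acid differed less between dystrophic and wildtype libraries. Ifih1, the gene of MDA5, was at 20.9 and 18.4 CPM in B10 and *mdx*, and 9.87 and 7.66 in DBA and D2-*mdx*, and Ddx58, the gene of RIG-I, at 23, 16, 13.1 and 11.5 CPM. Both were lower on the DBA than on the B10 background. Dhx58, the related LGP2, had the low levels of 2.23, 2.43, 1.30 and 1.58 CPM, with intervals that included 0 for both disease ratios. Zbp1, a sensor of Z-form nucleic acid that can trigger cell death, was at 7.57 and 5.08 CPM in B10 and *mdx* and at 2.36 and 3.50 in DBA and D2-*mdx*. Its log2 ratio was -0.58 (-0.84 to -0.32) on the first background and 0.57 (0.14 to 1.01) on the second.

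Of the genes of the IFIT proteins, which bind viral RNA, 3 differed widely between libraries and Ifit2 was more even. Ifit1 was at 13.3 and 10.1 CPM in B10 and *mdx*, and 0.93 and 2.90 in DBA and D2-*mdx*, from 532, 409, 28 and 101 UMIs. Ifit3 was at 9.73, 6.86, 0.50 and 1.75 CPM from 388, 277, 15 and 61 UMIs, and Ifit3b at 2.96, 2.43, 0.33 and 0.40 CPM. In all 3 genes each library of the B10 background exceeded each of the DBA background. Ifit2, the neighbouring gene on the same chromosome, did not share this order, with 11.0 and 9.19 CPM in B10 and *mdx*, and 6.45 and 10.9 in DBA and D2-*mdx*. Relative to DBA, D2-*mdx* was higher by log2 ratios of 1.64 (1.02 to 2.30) for Ifit1, 1.81 (0.98 to 2.73) for Ifit3 and 0.75 (0.50 to 1.01) for Ifit2. For Ifit3b the interval of -1.0 to 1.61 included 0.

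Isg15 encodes a ubiquitin-like modifier, and Usp18 the protease that removes it and also damps receptor signalling. Isg15 was at 27.2 and 25.8 CPM in B10 and *mdx*, and 7.01 and 13.4 in DBA and D2-*mdx*. B10 and *mdx* did not differ beyond counting error for Isg15 (log2 ratio -0.08, -0.20 to 0.04), whereas D2-*mdx* was above DBA by 0.93 (0.70 to 1.18). Usp18 was at 6.14, 4.98, 0.30 and 1.12 CPM, with 9 UMIs in DBA, and had the lowest log2 ratio of DBA over B10 of any tested member, -4.36 (-5.51 to -3.41). Trim25, a ubiquitin and ISG15 ligase that activates RIG-I, was far more even, at 27.9, 22.6, 19.7 and 17.1 CPM.

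Of the oligoadenylate synthetase family, whose products switch on RNase L or, in OASL proteins, act on sensing and translation, Oasl2 had reads in every library. It was at 23.1 and 15.1 CPM in B10 and *mdx*, and 3.62 and 5.59 in DBA and D2-*mdx*. Oasl1 had 4 to 32 UMIs per library. Oas1a had none in B10, which allows up to 0.0752 CPM at 3 counts, while *mdx*, DBA and D2-*mdx* had 10, 1 and 2. Mx1, a dynamin-like GTPase against influenza virus, had 7, 25, 2 and 6 UMIs. Many laboratory strains are known to carry defective Mx1 alleles. These 3 genes and Ifi44 stayed below a mean of 1 CPM over libraries and were left out of the counts of differences.

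Rsad2, the gene of viperin, which makes a chain-terminating nucleotide, and Cmpk2, the nucleotide kinase beside it on chromosome 12, did not vary together. Rsad2 was at 5.09 and 5.75 CPM in B10 and *mdx*, and 5.22 and 3.93 in DBA and D2-*mdx*, nearly the same in the 2 wildtype libraries (log2 ratio of DBA over B10 0.04, -0.27 to 0.34). Cmpk2 was at 15.8, 6.02, 13.8 and 4.68 CPM. It was the only tested member more than 2-fold lower in both dystrophic libraries, by log2 ratios of -1.40 (-1.62 to -1.18) and -1.56 (-1.83 to -1.29).

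The guanylate-binding and immunity-related GTPases act on membranes that hold pathogens. Iigp1 had the highest log2 ratio of the tested inducible members in both disease comparisons. Its level was 4.31 CPM in B10 against 11.9 in *mdx*, which is 1.46 (1.21 to 1.72) on the log2 scale. It was 0.40 CPM in DBA, from 12 UMIs, against 4.16 in D2-*mdx*, which is 3.38 (2.53 to 4.37). Irgm1, a regulator of the family, went the other way in *mdx*: its levels were 40.2, 10.5, 15.9 and 10.7 CPM in B10, *mdx*, DBA and D2-*mdx*, with a log2 ratio of *mdx* over B10 of -1.94 (-2.10 to -1.79). Irgm2 was at 7.77, 3.25, 2.29 and 1.20 CPM and Igtp at 10.6, 5.55, 4.72 and 3.41 CPM, both highest in B10. Of the guanylate-binding genes, Gbp7 and Gbp2 were flatter, and Gbp3 was not. Gbp7 was at 39.3, 28.3, 26.5 and 19.8 CPM and Gbp2 at 13.0, 10.7, 9.17 and 10.4 CPM, while Gbp3 was at 10.4 and 8.33 CPM in B10 and *mdx* and at 2.69 and 3.39 in DBA and D2-*mdx*.

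Of the membrane proteins, Ifitm3 was at 491 and 514 CPM in B10 and *mdx*, and 260 and 590 in DBA and D2-*mdx*. DBA was thus the library that stood apart, and the log2 ratio of D2-*mdx* over DBA was 1.18 (1.15 to 1.22), against 0.06 (0.04 to 0.09) for *mdx* over B10. Bst2, the gene of tetherin, which holds budding virus at the surface, was at 33.4, 45.2, 15.8 and 23.7 CPM, higher in each dystrophic library than in its control. Ifi27l2a, a small protein of the inner mitochondrial or nuclear membrane, had the largest ratio of all tested members on the B10 background. It was at 0.83 CPM in B10 and 10.2 in *mdx*, and at 1.10 in DBA and 11.4 in D2-*mdx*, with log2 ratios of 3.63 (3.12 to 4.19) and 3.38 (2.87 to 3.94). This gene was most abundant in white blood cell-like cells, as described further on. Rtp4, a chaperone of receptors, was at 9.28, 8.72, 0.90 and 3.87 CPM. Xaf1, a pro-apoptotic factor, at 36.7, 24.9, 29.5 and 21.7 CPM, and Parp14, an ADP-ribosyltransferase, at 32.3, 20.4, 18.8 and 12.6 CPM, differed by less than 2-fold within each disease comparison.

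A difference of 2-fold was counted among features with a mean of at least 1 CPM over the 4 libraries, which 31 of the 35 members and 12251 of all features passed. In *mdx* over B10, 2 members were higher (Iigp1 and Ifi27l2a), where 7.90% of all features were, and 5 were lower (Irf9, Stat2, Irgm1, Irgm2 and Cmpk2), where 7.41% were. In D2-*mdx* over DBA, 8 were higher (Ifit1, Ifit3, Irf7, Iigp1, Rtp4, Ifi27l2a, Usp18 and Ifitm3), with 8.93% of all features, and 1 was lower (Cmpk2), with 8.29%. The median log2 ratio of the tested members was -0.32 in *mdx* over B10 and 0.27 in D2-*mdx* over DBA, where the medians of all features were -0.05 and -0.09.

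Of the 4 comparisons, DBA over B10 held the most members past 2-fold. In DBA over B10, no member was higher, where 3.87% of all features were, and 19 of the 31 were lower, where 3.70% were. These 19 were 10 inducible members (Ifit1, Ifit3, Ifit3b, Isg15, Irf7, Oasl2, Iigp1, Rtp4, Usp18 and Zbp1) and 9 others (Irf1, Irf9, Stat2, Bst2, Ifih1, Gbp3, Igtp, Irgm1 and Irgm2). In D2-*mdx* over *mdx*, none was higher (3.89% of all features) and 10 were lower (2.92% of all features), which were Ifit1, Ifit3, Ifit3b, Oasl2, Iigp1, Rtp4, Usp18, Ifih1, Gbp3 and Irgm2. The median log2 ratio of the tested members was -1.17 in DBA over B10 and -0.70 in D2-*mdx* over *mdx*, against 0.01 and -0.02 over all features. Reads of all 4 libraries were aligned to 1 reference genome, of the C57BL/6J strain, and an effect of strain sequence on alignment was not tested.

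**Figure D2:**
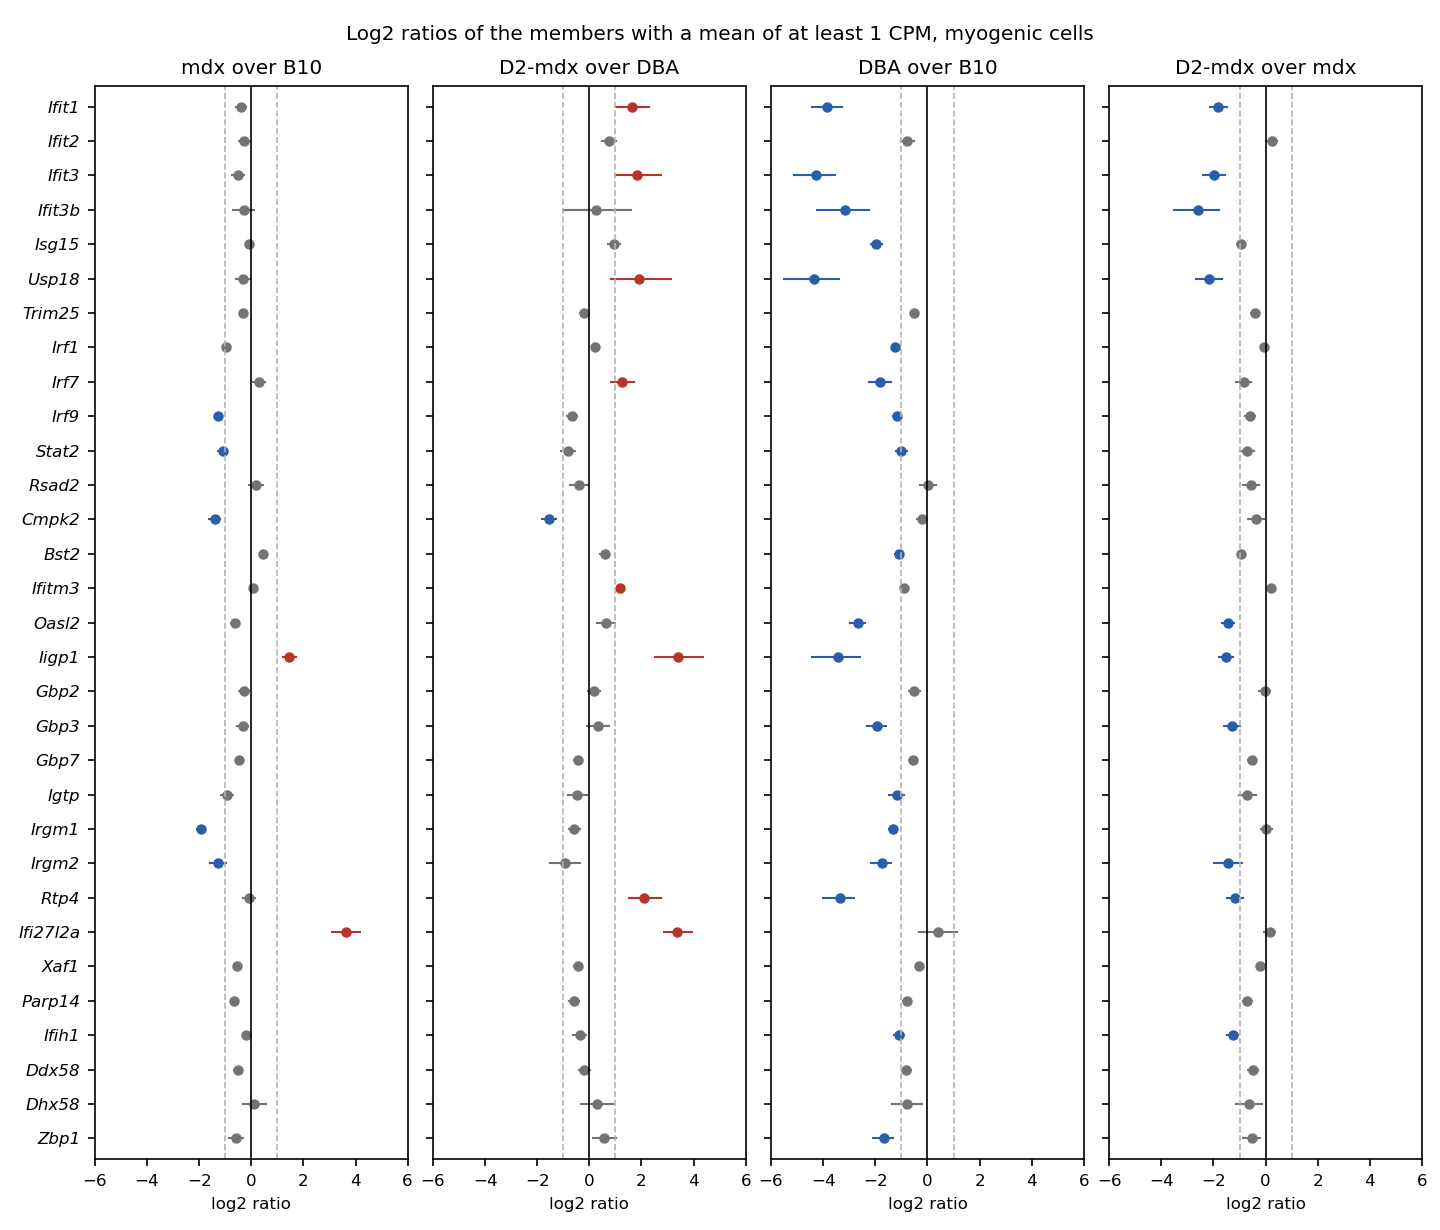
Log2 ratio of each of the 31 tested members in myogenic cells in the 4 comparisons (*mdx* over B10, D2-*mdx* over DBA, DBA over B10 and D2-*mdx* over *mdx*), which share libraries, with 95% counting intervals as bars, dashed lines at -1 and 1, and red or blue points for members at least 2-fold higher or lower. In DBA over B10, 19 of 31 tested members lie at or below -1 and none at or above 1, whereas the ratios of *mdx* over B10 lie around a median of -0.32.

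For the summed members the disease ratios had opposite signs on the 2 backgrounds. In *mdx* over B10 the log2 ratio of all members was -0.20 (-0.22 to -0.18), and in D2-*mdx* over DBA it was 0.69 (0.67 to 0.72). For the inducible members these ratios were -0.28 (-0.33 to -0.23) and 0.18 (0.10 to 0.26). Xaf1 and Cmpk2, both lower in D2-*mdx* than in DBA, gave 889 and 414 of the 2252 inducible UMIs in DBA. By gene, 12 of the 15 tested inducible members were above 0 in D2-*mdx* over DBA, where 43.8% of all features were. Their median log2 ratio was 0.75 in this comparison and -0.285 in *mdx* over B10. The difference between backgrounds was not tested. The positive ratio of all members rested on Ifitm3, without which the ratios were -0.47 in *mdx* over B10 and -0.01 in D2-*mdx* over DBA, with no opposite signs. By gene, 7 of the 31 tested members were lower in *mdx* than in B10 and higher in D2-*mdx* than in DBA with both intervals clear of 0, where 1.88% of all features were, and none had the reverse, where 2.1% did. For the backgrounds themselves, the inducible sum was lower in DBA than in B10 by a log2 ratio of -1.29 (-1.35 to -1.22) and lower in D2-*mdx* than in *mdx* by -0.82 (-0.89 to -0.76). Over all kept cells in place of myogenic cells, the inducible sum of *mdx* over B10 turned to 0.49 and that of all members to 0.57. Among kept cells the myogenic share was 96.4% and 76.3% in B10 and *mdx*, and 82.2% and 72.5% in DBA and D2-*mdx*.

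The interferons themselves were nearly without reads in these cells. Of 11 interferon genes, 68 UMIs were found over all kept cells of the 4 libraries, of which 51 were of Ifnk, 9 of Ifnb1, 7 of Ifng and 1 of Ifna2. In myogenic cells Ifnk had 14 UMIs in DBA and 3 in D2-*mdx*, and Ifnb1 and Ifng had 1 each, in *mdx*. Interferon made by cells outside the sort was not measured.

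Receptor genes, by contrast, were detected throughout. The type I receptor subunits were even across libraries, with Ifnar1 at 34.4, 29.5, 32.8 and 26.5 CPM and Ifnar2 at 41.7, 37.3, 38.7 and 37.2 CPM in B10, *mdx*, DBA and D2-*mdx*. The type II receptor differed more with disease: Ifngr1 was at 64.0, 97.2, 60.8 and 113 CPM and Ifngr2 at 13.6, 23.8, 12.4 and 29.2 CPM. The counts for this and the next lists stand beside shares of all features of 7.90% higher and 7.41% lower in *mdx* over B10, and 8.93% and 8.29% in D2-*mdx* over DBA. Of the 5 receptor genes tested, Ifngr2 and Il10rb were 2-fold higher in D2-*mdx* than in DBA, and none was past 2-fold in *mdx* over B10. Ifnlr1, the subunit particular to type III interferon, had no UMI in any library.

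Of 9 tested genes of JAK-STAT signalling and the IRF family outside the members, 1 was past 2-fold in a disease comparison. This was Irf8, lower in *mdx* than in B10 by a log2 ratio of -1.76. Of 10 genes of nucleic acid sensing and adaptors, Tmem173, the gene of STING, was 2-fold higher in both dystrophic libraries, at 5.65 CPM in *mdx* against 2.23 in B10 and 6.23 in D2-*mdx* against 1.495 in DBA, and none was 2-fold lower.

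Among 46 tested interferon-induced genes outside the list, 4 were 2-fold higher and 7 lower in *mdx* over B10, and 10 were higher and 7 lower in D2-*mdx* over DBA. In DBA over B10, 1 was higher and 13 were lower, with a median log2 ratio of -0.50, where 3.87% and 3.70% of all features were. Trim12a, a tripartite motif gene, was at 32.6 CPM in B10 and 23 in *mdx* but had 4 UMIs in DBA and 2 in D2-*mdx*. Trim12c was at 17.3, 13.4, 26.6 and 17.0 CPM in B10, *mdx*, DBA and D2-*mdx*. An effect of strain sequence on these counts was not tested. Ifi204, a DNA sensor, was at 0.13 CPM in both wildtype libraries, from 5 UMIs in B10 and 4 in DBA. It was at 7.31 CPM in *mdx* and 2.98 in D2-*mdx*, from 295 and 104 UMIs. Over all kept cells it had 1807 UMIs, so most lay outside myogenic cells, and the part of free RNA was not tested. Of 14 genes of antigen presentation by MHC class I, 2 were 2-fold lower in *mdx* over B10 (H2-Q4 and H2-Q6), and B2m was 2-fold higher and H2-Q4 lower in D2-*mdx* over DBA. B2m, the light chain of class I molecules, was at 186, 196, 106 and 230 CPM. Class I heavy chain genes differ in sequence between strains, and their ratios between backgrounds are uncertain.

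Cell classes were formed without the members and related genes and were named by markers as resembling a type. Myogenic cells fell into MuSC-like cells (Pax7, Myf5), DMD-enriched-like cells and cycling progenitor-like cells (Top2a, Ccna2). The DMD-enriched-like class was led by Cdkn1c and Postn but also by Myog, the factor of terminal differentiation. In MuSC-like cells the inducible sum was 192 and 165 CPM in B10 and *mdx*, and 75.9 and 92.5 in DBA and D2-*mdx*, and in DMD-enriched-like cells 135, 152, 69.3 and 93.2 CPM. The order of the backgrounds was the same in both classes. The order of B10 and *mdx* was not, with a log2 ratio of *mdx* over B10 of -0.22 (-0.29 to -0.16) in MuSC-like and 0.18 (0.07 to 0.29) in DMD-enriched-like cells. The DMD-enriched-like class held 518 B10 and 1551 *mdx* cells here, but 96 and 994 at resolution 0.4. Its ratio may therefore compare unlike mixtures of cells. D2-*mdx* exceeded DBA in both, by 0.28 (0.19 to 0.38) and 0.43 (0.24 to 0.62). The DMD-enriched-like class held 303 DBA and 1092 D2-*mdx* cells here, but 67 and 624 at resolution 0.4. The same limit thus holds for its ratio of 0.43.

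In *mdx* and D2-*mdx*, cycling progenitor-like cells were lower in the inducible members but not in Ifitm3. With 271 such cells in *mdx* and 403 in D2-*mdx*, their inducible sum was 70.3 and 50.5 CPM, below the MuSC-like cells of the same library. Ifitm3 was at 828 CPM in those of *mdx* and 863 in those of D2-*mdx*, against 528 and 529 in the MuSC-like cells. B10 and DBA had 16 and 34 cycling cells, with wide inducible sums of 150 (110 to 201) and 66.0 CPM (47.1 to 89.9). All members together were at 501 CPM in those of B10 and 544 in those of DBA, and without Ifitm3 at 300 and 188. In the B10 cycling cells Ifitm3 thus lay below the 502 CPM of MuSC-like cells. In those of DBA it lay above the 253 CPM of MuSC-like cells.

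Within the MuSC-like class, the cluster of 3240 cells led by Neu1, Ryr3 and Mirg had the highest inducible sum in every library, at 230 and 218 CPM in B10 and *mdx*, and 86.6 and 111 in DBA and D2-*mdx*. The cluster of 7904 cells led by the immediate-early genes Nr4a1, Btg2 and Fosb was at 180, 145, 70.6 and 88.0 CPM. The rank of the libraries was the same in both clusters.

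Of the 7 classes that passed the sort but were not myogenic, 5 held more of these transcripts per UMI than any myogenic class as a mean over libraries, and Schwann-like and vascular smooth muscle-like cells did not. Over libraries with at least 20 cells of a class, the mean inducible sum was 1191 CPM in endothelial-like cells, 676 in pericyte-like, 506 in glial-like, 354 in white blood cell-like and 331 in fibro-adipogenic or tenocyte-like cells. It was 131 in MuSC-like, 122 in Schwann-like, 112 in DMD-enriched-like, 62.3 in cycling progenitor-like and 56.4 CPM in vascular smooth muscle-like cells. For 26 of the 35 members the class with the highest mean was endothelial-like. The share of all features with their highest mean in this class was not computed, so the count has no background beside it. Ifi27l2a, Dhx58, Mx1 and Zbp1 were highest in white blood cell-like cells, Ifit2 and Ifit3 in glial-like, Isg15 and Irgm2 in pericyte-like and Ifih1 in fibro-adipogenic or tenocyte-like cells. These means do not cover the same libraries: MuSC-like, DMD-enriched-like, pericyte-like and glial-like cells had at least 20 cells in all 4, cycling progenitor-like and white blood cell-like cells in all but B10, endothelial-like, Schwann-like and fibro-adipogenic or tenocyte-like cells in *mdx* and D2-*mdx* alone, and vascular smooth muscle-like cells in *mdx* alone. The endothelial value rests on 252 *mdx* and 88 D2-*mdx* cells, since B10 had 14 and DBA 9.

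**Figure D3:**
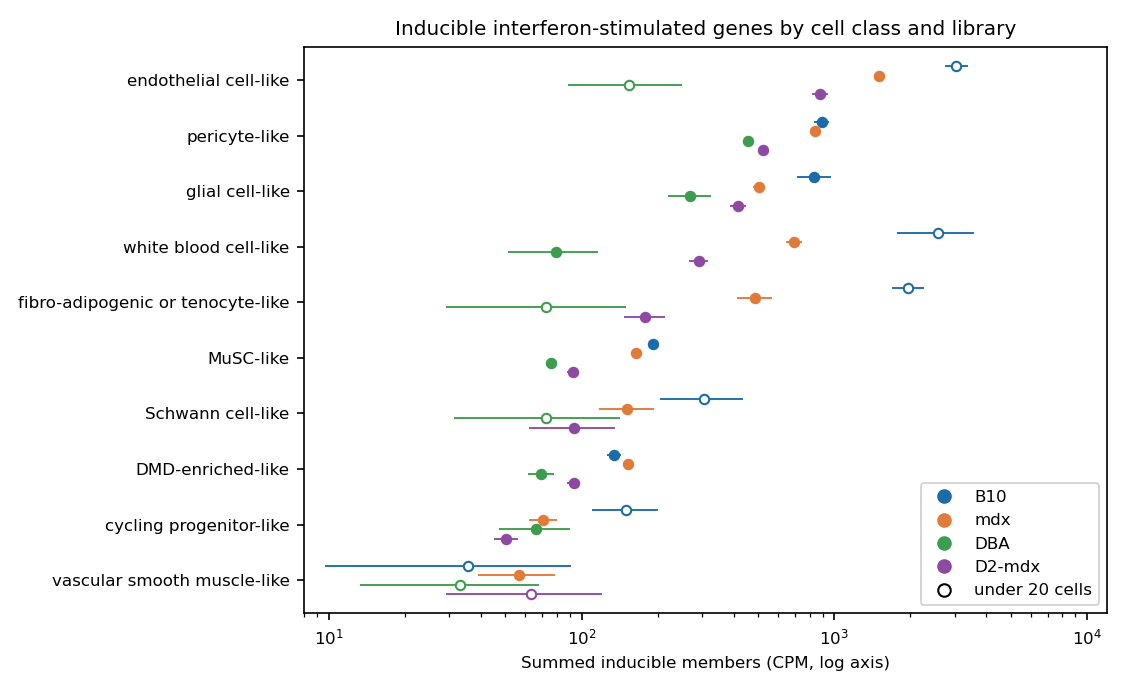
Summed level of the 19 inducible members in each cell class and library, in CPM on a log axis, with exact 95% Poisson intervals and open points for fewer than 20 cells. Endothelial-like, pericyte-like and glial-like cells lie above the myogenic classes of the same library, and in pericyte-like cells B10 (892 CPM) and *mdx* (837) lie above DBA (455) and D2-*mdx* (521).

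The lower level of the DBA background was also measured in classes other than the myogenic ones. In pericyte-like cells the inducible sum was 892 and 837 CPM in B10 and *mdx*, and 455 and 521 in DBA and D2-*mdx*, with DBA below B10 by a log2 ratio of -0.97 (-1.08 to -0.86) and D2-*mdx* below *mdx* by one of -0.69 (-0.75 to -0.62). In glial-like cells these ratios were -1.63 (-2.0 to -1.28) and -0.27 (-0.40 to -0.14), in endothelial-like cells D2-*mdx* over *mdx* was -0.77 (-0.89 to -0.65), and in white blood cell-like cells it was -1.25 (-1.41 to -1.09). The disease ratios varied by class. *mdx* over B10 was -0.09 (-0.20 to 0.01) in pericyte-like and -0.73 (-0.96 to -0.49) in glial-like cells, and D2-*mdx* over DBA was 0.20 (0.12 to 0.27), 0.63 (0.34 to 0.94) and 1.88 (1.30 to 2.52) in pericyte-like, glial-like and white blood cell-like cells. The wildtype values of glial-like cells rest on 23 cells in B10 and 30 in DBA. The DBA value of white blood cell-like cells rests on 23 cells, and the intervals do not cover differences between cells.

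Some of a member's UMIs in a myogenic cell can be free RNA of other cells. Summed pericyte markers in MuSC-like cells were at 0.249% to 0.591% of their level in pericyte-like cells, and all 6 had UMIs there, whereas Ifitm3 was at 11.4% to 18.7% and Isg15 at 8.25% to 13.6%. Endothelial markers were at 0.0316% to 0.178% of their endothelial-like level. The part of free RNA in the levels of the members was not tested.

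Ifi27l2a was different. In MuSC-like cells it was at 0.876 and 8.27 CPM in B10 and *mdx*, and 0.550 and 6.56 in DBA and D2-*mdx*, and in white blood cell-like cells of *mdx*, DBA and D2-*mdx* at 1338, 107 and 719 CPM. Its level in MuSC-like cells was 0.618%, 0.512% and 0.913% of that in white blood cell-like cells of the same 3 libraries. Against pericyte-like cells this share was 0.887%, 4.58%, 3.42% and 15.6% in B10, *mdx*, DBA and D2-*mdx*. Against endothelial-like cells it was 5.39% in *mdx* and 25.5% in D2-*mdx*. The summed white blood cell markers in MuSC-like cells were at 0.131%, 0.0335% and 0.328% of their own level and, as 0.997, 24.6, 6.01 and 90.1 CPM in B10, *mdx*, DBA and D2-*mdx*, were higher in each dystrophic library. B10 had a single white blood cell-like cell, and 1 of the 7 markers was at 0 in its MuSC-like cells. The part of free RNA in the Ifi27l2a ratios was not tested.

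The inducible members were spread unevenly over cells. Myogenic cells were thinned to 3000 UMIs each, and 38 shallower B10 cells were left out. No inducible member was detected in 69.1% and 78.1% of B10 and *mdx* cells and in 80.4% and 81.5% of DBA and D2-*mdx* cells. At the other end, cells with at least 5 inducible members were 44 of 4380 in B10 (1.00%, exact binomial interval 0.731% to 1.35%) and 48 of 4818 in *mdx* (0.996%, 0.735% to 1.32%). They were 1 of 2696 in DBA (0.0371%, 0.000939% to 0.206%) and 11 of 4173 in D2-*mdx* (0.264%, 0.132% to 0.471%). The most detected in 1 cell was 11, 14, 7 and 9 members in this order of libraries. The limit of 5 members cuts a range and not a type: 36, 22, 3 and 9 cells had 4 inducible members, 1 below the limit, and 16, 15, 0 and 4 had just 5.

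**Figure D4:**
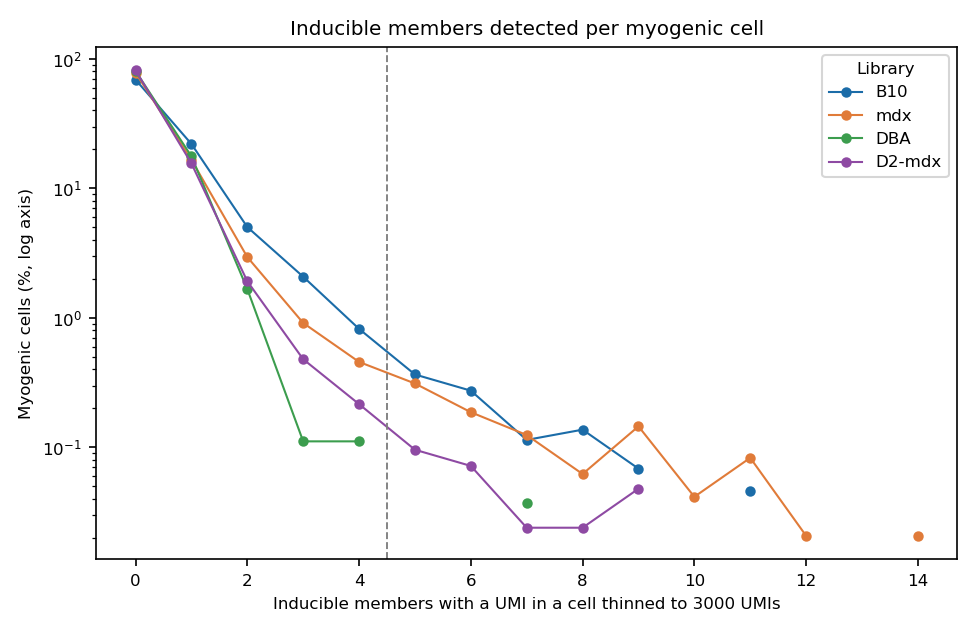
Percent of myogenic cells (log axis) by the number of inducible members with a UMI after thinning to 3000 UMIs, 1 line per library, broken where no cell has that number, with a dashed line below the limit of 5. The lines of B10 and *mdx* reach 11 and 14 members, that of D2-*mdx* 9, and DBA has a single cell past the limit of 5, with 7.

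These cells were chosen by the inducible members, so their share of those UMIs is a description. In *mdx* they held 32.1% of the inducible UMIs but 0.994% of all UMIs of the myogenic cells, in B10 16.8% and 0.848%, in D2-*mdx* 11.3% and 0.316%, and in DBA 1.11% and 0.0284%. With them left out, a step added after seeing the data, the inducible sum was 153 and 103 CPM in B10 and *mdx*, and 74.0 and 75.6 in DBA and D2-*mdx*. The log2 ratio of DBA over B10 was then -1.05, that of *mdx* over B10 -0.57 (-0.63 to -0.51) and that of D2-*mdx* over DBA 0.03 (-0.05 to 0.11). By gene, the ratio of *mdx* over B10 was then 0.09 (-0.18 to 0.36) for Irf7 and -0.41 (-0.56 to -0.26) for Isg15. For Irf7 the ratio of D2-*mdx* over DBA was 1.03 (0.58 to 1.49). Leaving out cells by the measured genes lowers each sum by construction. Their median depth was 7058 UMIs in B10, 7339 in *mdx* and 7561 in D2-*mdx*, against 8483, 6848.5 and 6485.5 in the other myogenic cells. They were thus shallower than the rest in B10 and deeper in the 2 dystrophic libraries.

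Cells with at least 5 inducible members were more frequent in several non-myogenic classes. They were 49 of 252 endothelial-like cells (19.4%), 46 of 612 pericyte-like cells (7.52%), 10 of 112 white blood cell-like cells (8.93%) and 19 of 352 glial-like cells (5.40%) in *mdx*. In D2-*mdx* they were 11 of 88 (12.5%), 25 of 986 (2.54%), 8 of 159 (5.03%) and 8 of 231 (3.46%). Pericyte-like cells gave 9 of 93 in B10 (9.68%) and 13 of 485 in DBA (2.68%). Not every class held them. There was none among 94 vascular smooth muscle-like cells of the 4 libraries, which allows up to 3.19%, and 1 among 151 Schwann-like cells (0.662%). Fibro-adipogenic or tenocyte-like cells gave none of 29 in *mdx* and of 50 in D2-*mdx*, but 2 of 8 in B10. Over the 4 libraries they gave 2 of 94 (2.13%). DBA had none among 9 endothelial-like, 30 glial-like and 23 white blood cell-like cells. In pericyte-like cells, as in myogenic cells, the share was higher in B10 and *mdx* than in DBA and D2-*mdx*.

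Members differed in how they were detected together. Over the myogenic cells of the 4 libraries, cells with a UMI of Mx1 had 15.3 times as many other inducible members as cells without one. This factor was 14.7 for Ifi44, 12.1 for Ifit3b, 10.7 for Oasl1, 9.69 for Ifit1 and 9.53 for Ifit3. Few cells had a UMI of the first of these: 15 of Mx1, 18 of Ifi44, 74 of Ifit3b and 20 of Oasl1. The factor was 2.89 for Xaf1 and 1.93 for Ifit2 among inducible members, and 1.95 for Ifitm3, 1.49 for Ifi27l2a and 1.25 for Irf1 among the others. The factor is a description of sparse counts and pools libraries in which the inducible members and Ifi27l2a were detected at different rates, so the order of the members can differ within a library.

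The cells with at least 5 inducible members were chosen by those members, and only the other genes describe them further. In B10 and *mdx*, with 44 and 48 such cells, Ifitm3 was 4.85-fold (4.51 to 5.21) and 6.22-fold (5.87 to 6.59) higher than in the remaining myogenic cells. Igtp was 12.6-fold and 21.7-fold higher, Gbp3 6.90-fold and 22.1-fold, and Bst2 7.27-fold and 17.7-fold. Irf1 was at 1.40-fold (0.968 to 1.96) in B10, with an interval that included 1, and was 1.69-fold (1.09 to 2.50) higher in *mdx*. Ifi27l2a had no UMI in these B10 cells and was 2.73-fold (1.35 to 4.93) higher in *mdx*.

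Among genes outside the list, 9 of the 10 with the largest median fold in these cells were Apol9a, F830016B08Rik, Slfn8, Apol9b, Cxcl10, Ddx60, Rnf213, Lgals3bp and Slfn9. All of these but F830016B08Rik were in the list of interferon-induced genes. They were picked for a high fold in these same cells, and the list was made with earlier results of these data known. The overlap is thus a description, and the share of listed genes among all genes so filtered was not computed. Apol9a and Apol9b, and Slfn8 and Slfn9, are close relatives whose reads may be shared. Cxcl10, a chemokine that draws T cells, was 32.0-fold (25 to 40.7) higher in these cells of *mdx*, from 91 UMIs, and had no UMI in those of B10, where the remaining cells were at 14.9 CPM. The MHC class I genes together were 2.11-fold and 2.78-fold higher. The interferon receptor genes together were at 1.08-fold and 0.89-fold. No interferon gene had a UMI in these cells. All myogenic cells together had 1 UMI of Ifna2 in B10 and 1 each of Ifnb1 and Ifng in *mdx*. The lack of UMIs therefore says nothing about these cells.

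**Figure D5:**
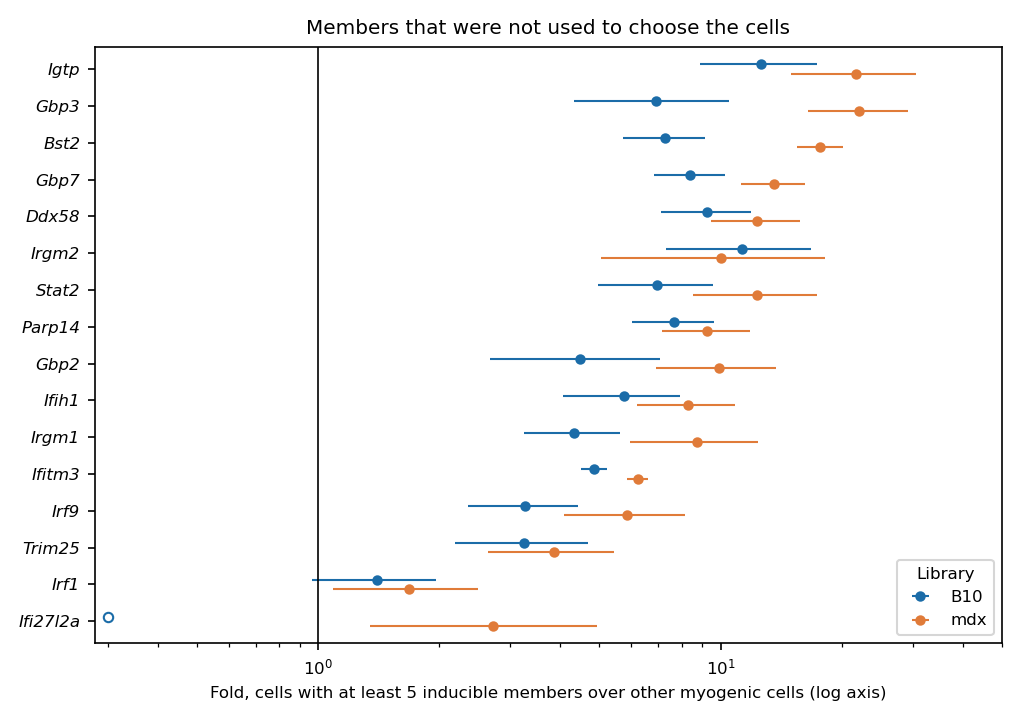
Fold, on a log axis, of the 16 members not used to choose the cells, in myogenic cells with at least 5 inducible members over the remaining myogenic cells, for B10 (44 cells) and *mdx* (48 cells), with 95% counting intervals and an open point at the left edge for no UMI. Igtp lies at 12.6 and 21.7, Gbp3 at 6.90 and 22.1, Ifitm3 at 4.85 and 6.22 and Irf1 at 1.40 and 1.69, and Ifi27l2a has no UMI in B10.

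These cells carried satellite cell markers. MuSC markers together were at 1.16-fold in both B10 (1.10 to 1.22) and *mdx* (1.10 to 1.23), and Pax7 was at 958 CPM against 905 in the remaining B10 cells and at 424 against 424 in *mdx*. Markers of differentiating myocytes were lower, at 0.147-fold in B10 and 0.132-fold in *mdx*, and Myog was at 0.116-fold (0.0652 to 0.192) in *mdx*. Markers of other cell types were sparse: summed pericyte, endothelial and white blood cell markers gave 5, 2 and 1 UMIs in the 44 B10 cells and 12, 3 and 11 in the 48 *mdx* cells, each with an interval of the fold that included 1. Markers of fibro-adipogenic cells or tenocytes had no UMI in B10 and 18 in *mdx*, where they were 3.71-fold (2.18 to 5.93) higher. Hemoglobin and other erythrocyte genes were at 0.0532-fold and 0.0750-fold of the remaining cells. The part of these 2 marker lists in the member values was not tested.

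When the interferon-induced genes were kept among the features for clustering, a cluster formed that was named immunomyoblast-like by Ifit1, Ifit3, Isg15, Usp18 and Iigp1. B10 and *mdx* gave it 105 and 81 cells and DBA and D2-*mdx* 10 and 31, with inducible sums in this order of 2284, 3216, 930 and 1653 CPM. The members formed this cluster, so these values describe it and do not test it.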

How the data were processed

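Sorted hindlimb satellite cells gave 4 single-cell libraries (10X Genomics, 3′ chemistry), 1 per strain. The authors aligned reads to mm10 with Cell Ranger 3.0.1 and deposited whole-number counts of UMIs per gene and barcode, without normalization. From these counts, cells of 1000 to 5000 genes whose mitochondrial share was at most 8% were kept, and predicted doublets (Scrublet in scanpy 1.11.5, 0.008 per 1000 cells) were removed: 2.70% to 5.34% of cells. Libraries were integrated in Seurat 5.3.0 (R 4.3.3; 2000 features, 30 dimensions) without interferon and MHC class I genes, and clustered at resolution 0.1 for all and 0.2 for myogenic cells. Clusters took the class whose markers, standardised across clusters, were highest; 13 myogenic cells with pericyte genes were left out. UMIs were summed per library and class and scaled to CPM. Levels have exact Poisson, shares exact binomial and ratios binomial-share intervals at 95%. For ratios, a library with 0 UMIs would need a floor of 3 counts. No test was run, because no strain has a replicate library. The intervals of ratios were checked on simulated Poisson counts, which hold counting error alone. Uneven spread over cells and differences between mice were not simulated, so the check does not cover them. Genome positions are on GRCm38. edgeR 4.0.16 and DESeq2 1.42.0 served only for size factors.

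The members, gene lists, markers and the limit of 5 members were chosen with earlier results of these data known. Named genes were all members, Dmd, pathway genes at the ends of their lists, and the 10 non-members with the largest median fold in cells with at least 5 inducible members, among genes with at least 50 UMIs there, of which 1 is not reported here. Alternatives changed cell limits, doublets, library sizes, cell sets, expression minimums, thinning, the limit of 5 members and clustering.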

Additional observations from a re-analysis of the deposited data

Results flagged for a closer look

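Several disease ratios in myogenic cells pointed in opposite directions on the 2 backgrounds. The log2 ratio of D2-*mdx* over DBA exceeded that of *mdx* over B10 by 0.89 for all members together and by 0.46 for the inducible members. Without Ifitm3 the sum of all members gave -0.47 and -0.0123, with no opposite signs. Without the cells with at least 5 inducible members the inducible ratios were -0.57 and 0.0308, the last with an interval that included 0. In DBA, 889 and 414 of the 2252 inducible UMIs were of Xaf1 and Cmpk2, which were both lower in D2-*mdx*. Of the 31 tested members, 7 had a negative ratio in *mdx* over B10 and a positive one in D2-*mdx* over DBA with both counting intervals clear of 0, against 1.88% of the 12247 features tested in both comparisons. Their differences were 2.04 for Ifit1, 1.01 for Ifit2, 2.32 for Ifit3, 1.17 for Irf1, 1.24 for Oasl2, 2.21 for Usp18 and 1.15 for Zbp1, on the log2 scale. Each is a difference of 4 single libraries and was not tested.

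Some groups of barcodes left out of the comparisons held inducible members above the level of the same group in the control library. These groups were not split by cell class, so each pair may compare unlike mixtures of cells. Of kept cells, 76.3% were myogenic for *mdx* against 96.4% for B10, and 72.5% for D2-*mdx* against 82.2% for DBA. The part of cell class in the values below was not tested. Barcodes under 1000 genes were at 249.36 CPM in *mdx* (21 barcodes) against 139 in B10 (4739 barcodes), and at 522.82 CPM in D2-*mdx* (17 barcodes) against 177 in DBA (11 barcodes). The 21 of *mdx* held 136350 UMIs in total and the 4739 of B10 held 2683638, so a barcode of *mdx* was deeper on average. Barcodes of at least 1000 genes and over 8% mitochondrial UMIs were at 122.44 CPM in D2-*mdx* against 37.0 in DBA. Predicted doublets were at 322.25 CPM in *mdx* against 119 in B10 and at 242.74 CPM in D2-*mdx* against 106 in DBA. Other groups did not follow this: barcodes over 5000 genes were at 141 CPM in *mdx* against 337 in B10 and at 92.7 in D2-*mdx* against 89.0 in DBA, and those over 8% mitochondrial UMIs were at 186 CPM in *mdx* against 207 in B10.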

How the results depend on the processing

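No paired analysis was possible because each strain has 1 library. Over 232 recomputed values, 141 moved by no more than their counting interval or, for counts, by no more than 1.5 times, 86 moved by more and 5 changed sign. The level of 1 library, the mice, age and strain cannot be told apart, and counting error limits the low levels in DBA, such as the 9 UMIs of Usp18. The cause of these moves was not tested. Ratios are log2, in the order *mdx* over B10, D2-*mdx* over DBA, DBA over B10 and D2-*mdx* over *mdx* where all are given. With all kept cells, the sum of all members gave 0.57 (sign changed), 0.80, -0.30 and -0.0698, the inducible sum 0.49 (sign changed), 0.49, -0.68 and -0.68, and 7 members were higher and 1 lower in *mdx* over B10 and 11 lower in DBA over B10. Without Ifitm3 the sum gave -0.47, -0.0123 (sign changed), -1.07 and -0.61. Without the cells with at least 5 inducible members, chosen after seeing the data, all members gave -0.27, 0.66, -0.92 and 0.00965 (sign changed) and inducible members -0.57, 0.0308, -1.05 and -0.45. With at least 500 genes and no upper limit, all members gave -0.17, 0.86 and, for D2-*mdx* over *mdx*, 0.0411 (sign changed), inducible members -0.41 and 0.0729, and 3 members were lower in D2-*mdx* over DBA. With at most 5% mitochondrial UMIs, all members gave -0.26 in *mdx* over B10, -1.03 in DBA over B10 and -0.0822 in D2-*mdx* over *mdx*, inducible members -0.36 and -0.71 in the first and last, and 2 members were lower in D2-*mdx* over DBA. With MuSC-like cells alone, all members gave -0.16, 0.64, -1.05 and -0.25, inducible members -0.22 and 0.28 in the disease comparisons, and 2 members were lower in *mdx* over B10. With TMM or DESeq2 library sizes, *mdx* over B10 gave -0.15 or -0.14 for all and -0.23 or -0.22 for inducible members, D2-*mdx* over DBA 0.74 or 0.77, and D2-*mdx* over *mdx* -0.0794 with DESeq2. With the mean of UMIs per 10000 over cells, inducible members gave -0.35 in *mdx* over B10 and -1.37 in DBA over B10, and all members 0.65, -1.07 and -0.21 in the last 3 comparisons. With no minimum level, 5 members were higher in *mdx* over B10 and 1 in DBA over B10, and with a mean of at least 5 CPM 6 were lower in D2-*mdx* over *mdx*. Shares of all features past 2-fold were not recomputed under these settings, so the changed counts of members have no background beside them.

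The share of cells with at least 5 inducible members was, in B10, *mdx*, DBA and D2-*mdx*, 0.657%, 0.726%, 0% and 0.0959% when thinned to 2000 UMIs and 4.07%, 2.41%, 0.334% and 0.983% unthinned. Thinned to 5000 UMIs it was 2.21% in B10, 1.62% in *mdx* and 0.711% in D2-*mdx*. A limit of 3 members gave 3.90%, 2.37%, 0.260% and 0.959%, a limit of 8 gave 0.251%, 0.374%, 0% and 0.0719%, and DBA had 0% with doublets kept. With doublets kept, the mean inducible level was 127 CPM in MuSC-like, 131 in DMD-enriched-like, 75.5 in cycling progenitor-like, 640.2 in pericyte-like, 1140 in endothelial-like and 508 in fibro-adipogenic or tenocyte-like cells, and the Schwann-like class gave no value. With interferon genes among the clustering features it was 94.9 in MuSC-like, 92.3 in DMD-enriched-like, 53.2 in cycling progenitor-like and 705 CPM in pericyte-like cells. It was 130.05 in DMD-enriched-like and 70.3 in cycling progenitor-like cells with 20 dimensions, and 128 and 75.5 CPM at resolution 0.4.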

Other observations

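Some interferon-induced genes outside the list also differed strongly between libraries. Ifitm1, a relative of Ifitm3, was at 0.43 and 5.28 CPM in myogenic cells of B10 and *mdx* and at 2.03 and 16.5 CPM in those of DBA and D2-*mdx*. It was also among the leading genes of pericyte-like cells, whose summed markers in MuSC-like cells were at 23.1, 40.6, 32.3 and 65.8 CPM in the same order, and the part of free RNA was not tested. Trim12a, detected with 1301 UMIs in B10 and 927 in *mdx*, had 4 in DBA and 2 in D2-*mdx*. Trim12c did not share this pattern, and an effect of strain sequence on alignment was not tested. H2-Q4, a class I gene, was at 123 and 131 CPM in the wildtype libraries B10 and DBA, and at 32.9 and 35.3 CPM in *mdx* and D2-*mdx*, lower in both dystrophic libraries.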
